A study of Homo sapiens with 6 samples.

Results

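The genes described here encode the kinetochore, the protein assembly that ties a chromosome to the spindle, and the spindle checkpoint that watches over this attachment. They were taken by symbol from a list of 42 genes in 6 subcomplexes, and all 42 were found among the 58735 genes of the deposited table. The cells were TPC1, a line established from a papillary carcinoma of the thyroid and grown with 10% serum, sequenced as 6 libraries of 2 groups. For 3 libraries they had received an siRNA called si-circ_0000839, aimed at a circular RNA, and for the other 3 a negative-control siRNA (NC), both for 60 h. All cells were thus transfected, and no untransfected cells were among the samples. The labels do not say whether the 3 samples of a group were separate cultures, and the spread behind each p-value may therefore be technical only.

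Kinetochores are built in layers. The inner layer sits on nucleosomes that carry the histone variant CENP-A and consists of the constitutive centromere-associated network. The outer layer is the KMN network, made of KNL1, the MIS12 complex and the NDC80 complex, which grips the microtubule. A fibrous corona with the RZZ complex forms on unattached kinetochores, where the checkpoint kinases and the MAD and BUB proteins produce the signal that holds back anaphase. The chromosomal passenger complex corrects wrong attachments, and the SKA complex strengthens right ones. Many of these genes are transcribed mainly in G2 and mitosis, so their RNA in a culture depends on how many cells are dividing. In bulk RNA, fewer cells in mitosis and less RNA per cell cannot be told apart.

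Each library held 18399558 to 19334633 reads, recovered from the FPKM values (fragments per kilobase of gene, scaled by a total for each library). That total was 0.9708 of the recovered reads in si-circ_0000839 replicate 1 and 0.9578 in NC replicate 2. In the other libraries it was 1.0002 to 1.0235 of them, so the scaling was not exactly by depth. The circular RNA itself was not matched to a row, so its depletion was not checked here. Thyroid identity was partial: PAX8 stood at 96.3 FPKM after si-circ_0000839 and 95.8 in NC, while NKX2-1, TSHR and SLC5A5 were at 0 in all libraries. Among 6 leukocyte markers PTPRC and CD3E were at 0, and LCP1 alone exceeded 1 FPKM, at 216 against 210 in NC. The summed level of 5 fibroblast markers was 14.5 to 19.1 FPKM after si-circ_0000839 and 20.1 to 25.2 in NC, nearly all of it LUM at 15.8 against 22.5 (adjusted p = 0.108 in limma). COL1A1, at 0.565 against 0.370 FPKM, and PDGFRB, at 0.197 against 0.136, were the other way round, with every si-circ_0000839 library above every NC library, and were below the mean needed for a test. The summed level of 4 endothelial markers was at most 0.153 FPKM. The part of these markers in the results was not tested.

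A pair of libraries stood apart in base composition. Over all tested genes, the fifth with the most GC-rich genes lay above the gene means by 0.11 in si-circ_0000839 replicate 1 and by 0.084 in NC replicate 2 on the log2 scale, and between -0.074 and -0.0094 in the other 4 libraries. Kinetochore genes are poor in GC: the median of those tested was 41.7%, against 49.3% over all tested genes, and 28 of 37 were below that value. Results that rest on these 2 libraries are therefore given with and without them, and also after a smooth trend on GC content and gene length was removed from each library.

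Only TTK, a checkpoint kinase, changed past the threshold after si-circ_0000839, and it fell. Of the 42 genes, 37 had a mean of at least 1 FPKM and were tested. In limma on log2(FPKM + 1), adjusted over all genes tested, 1 of the 37 passed an adjusted p of 0.05, 0 rose and 36 did not pass. The background was 41 of 10674 tested genes, 0.384%, with 0.253% lower and 0.131% higher. There were 28 genes with a change below 0, that is 28 of 37, where 48.2% of all tested genes were below 0. The median log2 change of the 37 was -0.064, against 0.0057 for all tested genes.

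At an unadjusted p under 0.05, 8 of the 37 were lower and 0 higher, where 6.31% of all tested genes were lower and 6.31% higher. The same 8, TTK, CENPA, NUF2, CENPQ, MIS12, BIRC5, CENPN and CENPH, were those in which every si-circ_0000839 library lay below every NC library. No tested gene of the list lay above in that way, while 7.55% of all tested genes were separated downward and 10.6% upward. These shares describe the list and do not test it. With voom, which is limma on the recovered reads, TTK was again the 1 gene of 37 that passed, where 0.815% of the genes passed, 0.351% lower and 0.464% higher. At an unadjusted p under 0.05, voom had 6 of the 37 lower and 0 higher, where 6.46% of its genes were lower and 7.51% higher.

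The shift of the whole list rested largely on si-circ_0000839 replicate 1. That library was the lowest of the 6 for 23 of 37 genes, whereas it was the lowest for 21.4% of all tested genes. Without it the median log2 change was -0.024, with 22 of 37 below 0 (47.5% of all tested genes). Without it and NC replicate 2 the median was -0.012, with 23 of 37 below 0 against 45.7% of all tested genes, whose own median was 0.012. After removal of the GC and length trend the median was -0.048, with 25 below 0 and 49.2% of all tested genes below 0. As deposited, the median deviations from the gene means were -0.11, 0.0023 and -0.026 for the si-circ_0000839 libraries and 0.028, 0.057 and 0.050 for NC. With the trend removed they were -0.023, -0.024 and -0.027 for si-circ_0000839 and 0.0019, 0.046 and 0.0077 for NC. The groups did not overlap in either case.

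**Figure D1:**
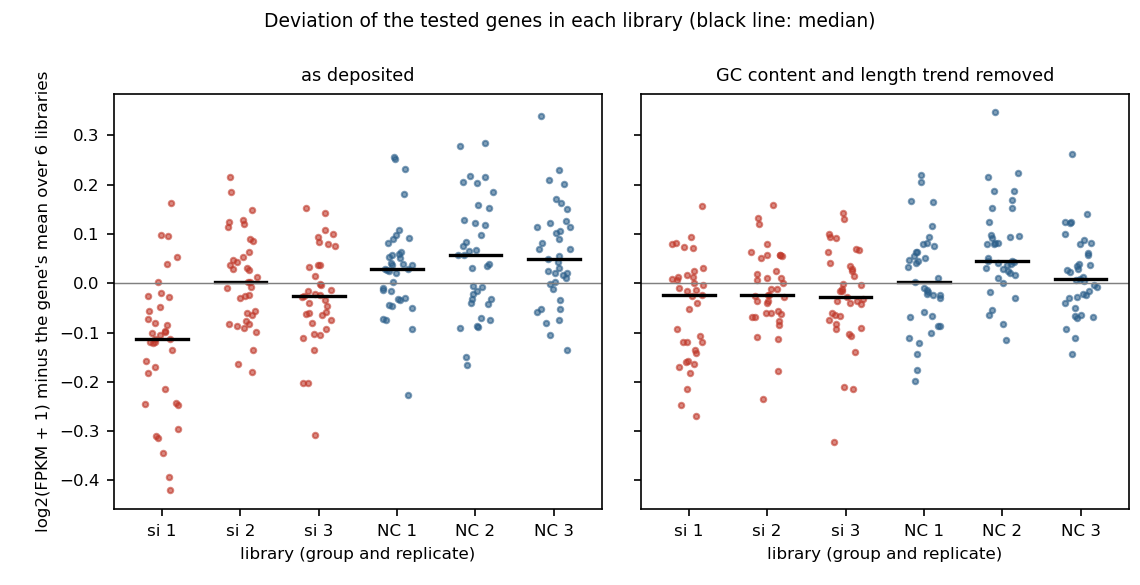
Each point is 1 of the 37 tested genes, placed by its log2(FPKM + 1) in a library minus its mean over the 6 libraries, with si-circ_0000839 in red and NC in blue. As deposited (left), the median of si-circ_0000839 replicate 1 lay at -0.11; with the GC content and length trend removed (right) it lay at -0.023, beside the other si-circ_0000839 libraries.

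Levels differed far more between the genes than between the groups. ZWINT, which links KNL1 to the RZZ complex, was the most abundant at a mean of 77.6 FPKM over the 6 libraries. AURKB at 57.7, BIRC5 at 52.0 and CDCA8 at 43.3, all of the chromosomal passenger complex, came next. The lowest was CENPC, the central scaffold of the inner kinetochore, at 0.422 FPKM. CENPP, CENPE, KNL1 and SGO2 were also below 1 FPKM on average. Recovered reads ranged from 51 per library, in CENPC and CENPE, to 4308 in BUB3.

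Genes whose proteins form one complex did not have equal FPKM. In the NDC80 complex, SPC24 exceeded NUF2 by 3.03-fold to 5.78-fold in FPKM across the libraries, and the order SPC24, SPC25, NDC80, NUF2 was the same in 6 of 6. In the CENP-H, CENP-I, CENP-K and CENP-M group, CENPM exceeded CENPK by 13.95-fold to 21.5-fold, again in the same order in 6 of 6 libraries. AURKB exceeded INCENP by 3.13-fold to 3.49-fold, with AURKB, BIRC5, CDCA8 and INCENP in that order in every library. In the MIS12 complex MIS12 was always the lowest, but the order of all 4 genes held in 3 of 6 libraries, with DSN1 and PMF1 changing places in the others. Gene length here covers all annotated exons and not only the transcripts present. GC content also differed between genes, at 61.4% for CENPM and 32.9% for CENPK. The part of length and GC content in these ratios was not tested.

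**Figure D2:**
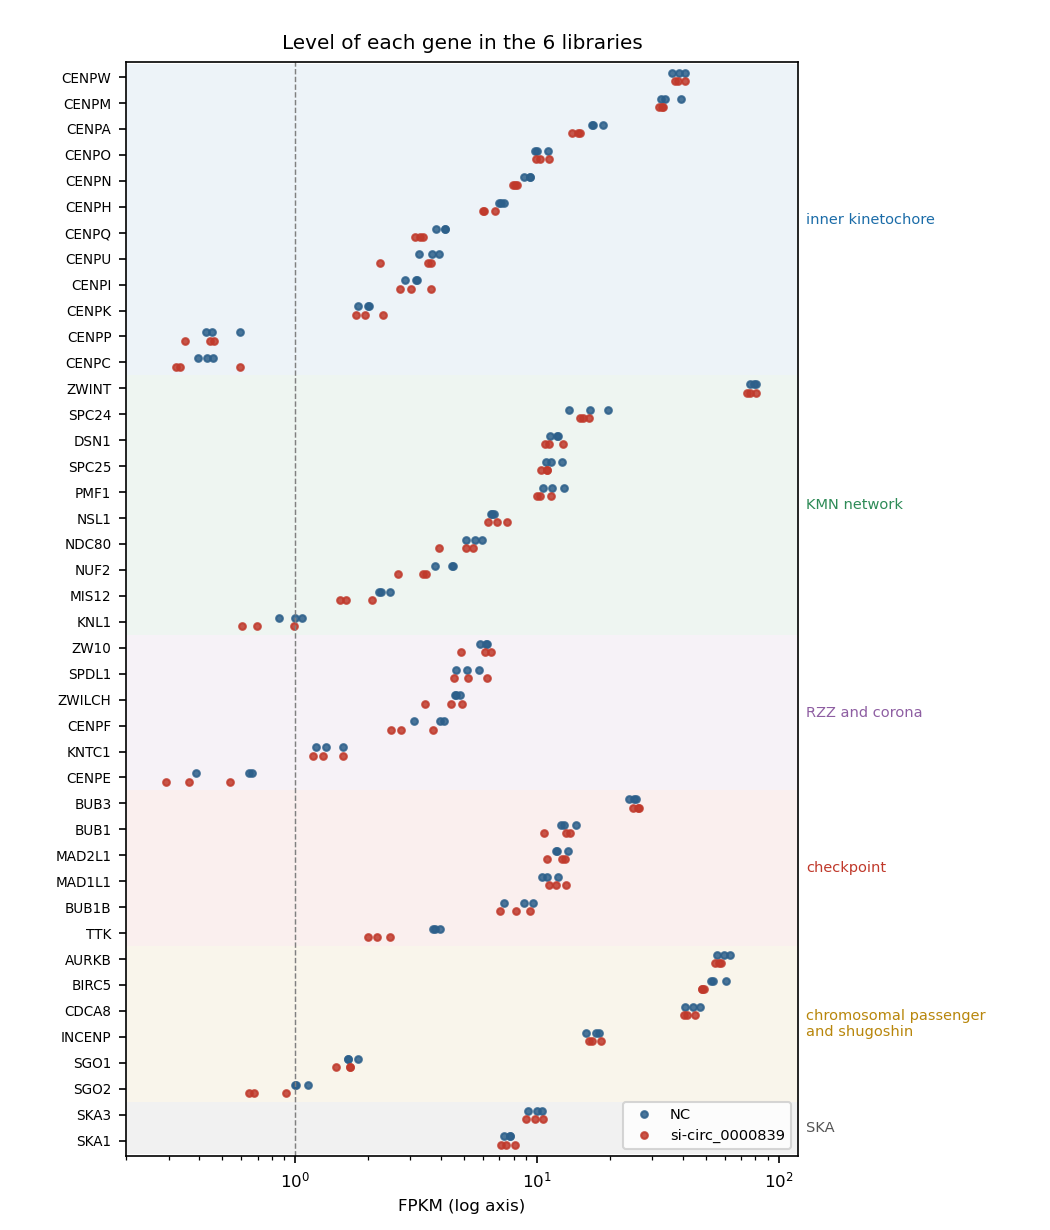
FPKM of the 42 genes on a log axis, 1 point per library, with si-circ_0000839 in red, NC in blue, and genes grouped by subcomplex. The dashed line marks the mean of 1 FPKM needed for the test; ZWINT lies highest, near 77.6 FPKM, and the TTK points of the groups are clearly apart.

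Among the 6 checkpoint genes, all tested, 1 passed and 4 were below 0, with a median log2 change of -0.042. TTK, also called MPS1, phosphorylates KNL1 and so starts the recruitment of the BUB proteins to unattached kinetochores. It lies at chr6:80003887-80042527 (GRCh38, plus strand). TTK was at 2.001, 2.48 and 2.18 FPKM in the si-circ_0000839 libraries and at 3.70, 3.80 and 3.98 in NC. All 3 si-circ_0000839 values were below the lowest NC value, so the groups did not overlap. The means were 2.22 ± 0.240 against 3.83 ± 0.141 (SD, n = 3 per group), 1.72-fold lower after si-circ_0000839, on 168 to 347 reads per library. Its log2 change in limma was -0.59 (SE 0.084, adjusted p = 0.0158).

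TTK fell in every fit that tested it, with log2 changes from -0.54 to -0.79. These fits were not all on one scale, and adding 1 to FPKM understates the change of a low gene. With the GC and length trend removed the change was -0.55 (adjusted p = 0.00743), and with limma's voom on recovered reads -0.79 (adjusted p = 0.0129). With 0.1 added to FPKM in place of 1 it was -0.76. The adjusted p depended on which libraries were used. It was 0.0184 without si-circ_0000839 replicate 2, 0.0482 without NC replicate 1 and 0.0491 without NC replicate 2. It missed the threshold in the other cases, at 0.0540 without si-circ_0000839 replicate 1, 0.0619 without si-circ_0000839 replicate 3, 0.0788 without NC replicate 3, and 0.0622 when si-circ_0000839 replicate 1 and NC replicate 2 were left out together. With no filter on low values, over 26557 genes, it was 0.181.

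The other checkpoint genes, 5 in all, did not pass. MAD1L1, which carries MAD2 to the kinetochore, was at 13.2, 11.2 and 11.99 FPKM after si-circ_0000839 and at 11.0, 12.2 and 10.5 in NC, and the groups overlapped (log2 change 0.097, adjusted p = 0.682). BUB1, the kinase that marks centromeric histone H2A, was at 10.7, 13.2 and 13.7 against 12.9, 12.6 and 14.5 FPKM. Only replicate 1 of si-circ_0000839 lay below all NC libraries for BUB1 (log2 change -0.089, adjusted p = 0.755). BUB3, the adaptor that binds phosphorylated KNL1, had the highest level of the subcomplex, at 25.03, 26.4 and 26.1 against 24.1, 25.3 and 25.6 FPKM. BUB3 varied little between libraries, with a log2 change of 0.046 (SE 0.065). BUB1B, which encodes BubR1 of the mitotic checkpoint complex, was at 8.21 ± 1.17 against 8.57 ± 1.15 FPKM (SD, n = 3 per group). MAD2L1, the MAD2 protein that captures CDC20, was at 12.3 ± 1.13 against 12.5 ± 0.830 FPKM. The difference of TTK from these partners was not tested.

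Of the 12 inner kinetochore genes 10 were tested, 0 passed, and 6 were below 0, with a median log2 change of -0.13. CENPA, the centromeric histone H3 variant, was at 13.97, 15.05 and 14.74 FPKM after si-circ_0000839 and at 17.1, 18.8 and 16.8 in NC. Its groups did not overlap (1.20-fold lower, log2 change -0.25, SE 0.071), and the adjusted p was 0.202. CENPQ, a subunit of the CENP-O, CENP-P, CENP-Q and CENP-U group that docks the kinase PLK1, was at 3.27, 3.14 and 3.39 against 3.84, 4.16 and 4.15 FPKM. The groups were again separate (log2 change -0.24, adjusted p = 0.229). With the GC and length trend removed the change of CENPQ was -0.077 and its groups overlapped.

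CENPN, which reads the CENP-A nucleosome, was at 7.95, 8.24 and 8.15 FPKM after si-circ_0000839 and at 9.38, 8.83 and 9.33 in NC. CENPH, part of the link between inner and outer layers, was at 6.05, 6.68 and 5.98 against 6.98, 7.13 and 7.30. Both were separate by group and both missed the threshold in limma (adjusted p = 0.366 for each). CENPW, a histone-fold partner of CENP-T and the most abundant inner gene, was at 37.2, 41.1 and 38.3 against 36.2, 40.8 and 38.8 FPKM, with groups that overlapped. Its log2 change was 0.010 and, with the GC and length trend removed, 0.16 (adjusted p = 0.223), where the groups still overlapped. CENPU was low in 1 library: it was at 2.25 FPKM in si-circ_0000839 replicate 1 and at 3.26 to 3.95 in the other 5. Its log2 change of -0.17 became 0.040 without that library and NC replicate 2. CENPI, CENPK and CENPO had log2 changes of 0.016, 0.024 and 0.019, and CENPM one of -0.096. With the GC and length trend removed, CENPK had every si-circ_0000839 library above every NC library (log2 change 0.14, adjusted p = 0.302).

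Without si-circ_0000839 replicate 1 and NC replicate 2 the median of the 10 inner genes was -0.00017. CENPA, CENPQ, CENPN and CENPH then had log2 changes of -0.18, -0.23, -0.17 and -0.15. CENPC, which bridges CENP-A nucleosomes and the MIS12 complex, was not tested, at 0.416 against 0.429 FPKM. CENPP was not tested either, at 0.419 against 0.490. The CENPO and CENPP gene models share 27% and 38% of their exon bases with ADCY3 and IPPK on the other strand. Other genes share less, among them CENPN with CMC2 (12.8%), CENPU with PRIMPOL (11.7%) and MIS12 with DERL2 (9.5%), also on the other strand. On the same strand, PMF1 shares 23.3% with PMF1-BGLAP and CENPA 7% with SLC35F6, which was at 22.55 against 22.13 FPKM. As the strand setting is not given in the sources used here, reads of the pairs on opposite strands cannot be assigned with certainty. Strand would not separate the pairs on the same strand.

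The regions upstream of these genes are shown because genes of G2 and mitosis are often controlled through a cell cycle homology element, with the letters TTTGAA or TTCGAA, and through CCAAT boxes. RefSeq windows (GRCh38.p14, from 250 bases before to 50 after the gene start) were found by symbol for 35 of the 42 genes. CENPH, CENPM, KNL1, KNTC1, BUB3, TTK and BIRC5 had no entry. TTTGAA on either strand was in 17 of 35, against 18.2% of all 27305 genes with a window and 12.7% of the tested genes with one. TTCGAA was in 4 of 35, against 1.82% of all and 2.24% of the tested genes. CCAAT on either strand was in 24 of 35, against 39.7% and 43.4%. Either of TTTGAA and TTCGAA, which a gene can hold together, was in 20 of 35, against 19.5% and 14.4%. A gene with several windows counts once if any of them holds the letters, and a match is a description and not a binding site. For the genes with the smallest p that have a window, the stretches outside GENCODE 29 exons were as follows, 5′ to 3′, with CCAAT on either strand in capitals.
CENPA, chr2:26785806-26785996, plus strand: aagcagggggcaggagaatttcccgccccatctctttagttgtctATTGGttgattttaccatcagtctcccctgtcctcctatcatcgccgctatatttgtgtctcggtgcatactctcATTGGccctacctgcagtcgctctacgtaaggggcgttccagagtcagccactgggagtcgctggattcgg
CENPQ, chr6:49463192-49463369, plus strand: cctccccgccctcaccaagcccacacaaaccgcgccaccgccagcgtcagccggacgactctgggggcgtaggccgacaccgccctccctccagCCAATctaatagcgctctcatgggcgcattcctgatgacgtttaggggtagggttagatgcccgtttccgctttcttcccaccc
The stretch of CENPA holds 2 CCAAT boxes, both on the other strand, and that of CENPQ holds 1. The windows of CENPA and NUF2 also hold TTTGAA, in capitals with 9 bases on each side; that of CENPA lies before the RefSeq start. The deposited gene models of CENPA and NUF2 begin further upstream, at 26764289 and 163266576, so these stretches lie within the span of those models. The stretch of CENPQ lies before its gene model.
CENPA, chr2:26786029-26786052, plus strand: agcgagcgaTTTGAAcgcgagcgg
NUF2, chr1:163321961-163321984, plus strand: ggcggcaagTTTGAAaagtgatga

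Of the 10 KMN network genes 9 were tested, 0 passed and 8 were below 0, with a median log2 change of -0.10. NUF2, the partner of NDC80 in microtubule binding, was at 2.68, 3.46 and 3.38 FPKM after si-circ_0000839 and at 4.48, 3.80 and 4.47 in NC. The groups did not overlap, and the mean was 1.34-fold lower (3.17 ± 0.432 against 4.25 ± 0.390, SD, n = 3 per group). Its log2 change of -0.33 (SE 0.098) was the second largest after that of TTK and missed the threshold in limma (adjusted p = 0.208). MIS12 was at 1.54, 2.08 and 1.62 against 2.22, 2.27 and 2.46 FPKM, 1.33-fold lower on 89 to 148 reads per library. Its groups were separate as well (log2 change -0.28, adjusted p = 0.275). With the trend removed NUF2 and MIS12 had log2 changes of -0.26 and -0.23, and without the 2 libraries that stood apart of -0.31 and -0.23.

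NDC80 itself was at 3.94, 5.10 and 5.46 FPKM after si-circ_0000839 and at 5.54, 5.07 and 5.91 in NC. Its groups overlapped, the lowest value being that of si-circ_0000839 replicate 1 (log2 change -0.17, adjusted p = 0.562). SPC24 and SPC25, which anchor the complex to the MIS12 complex, had log2 changes of -0.069 and -0.10. SPC24 also varied within NC, from 13.6 to 19.7 FPKM. ZWINT was at 76.1, 80.1 and 74.1 against 75.7, 80.7 and 78.7 FPKM, with a log2 change of -0.030 (SE 0.067). NSL1 was the only tested KMN gene above 0 (0.060, adjusted p = 0.798), and DSN1 and PMF1 were at -0.038 and -0.13. KNL1, the platform for the BUB proteins, was at 0.697, 0.987 and 0.604 against 1.001, 0.859 and 1.07 FPKM and was not tested. The median of the KMN genes was -0.024 without the 2 libraries and -0.072 with the trend removed.

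**Figure D3:**
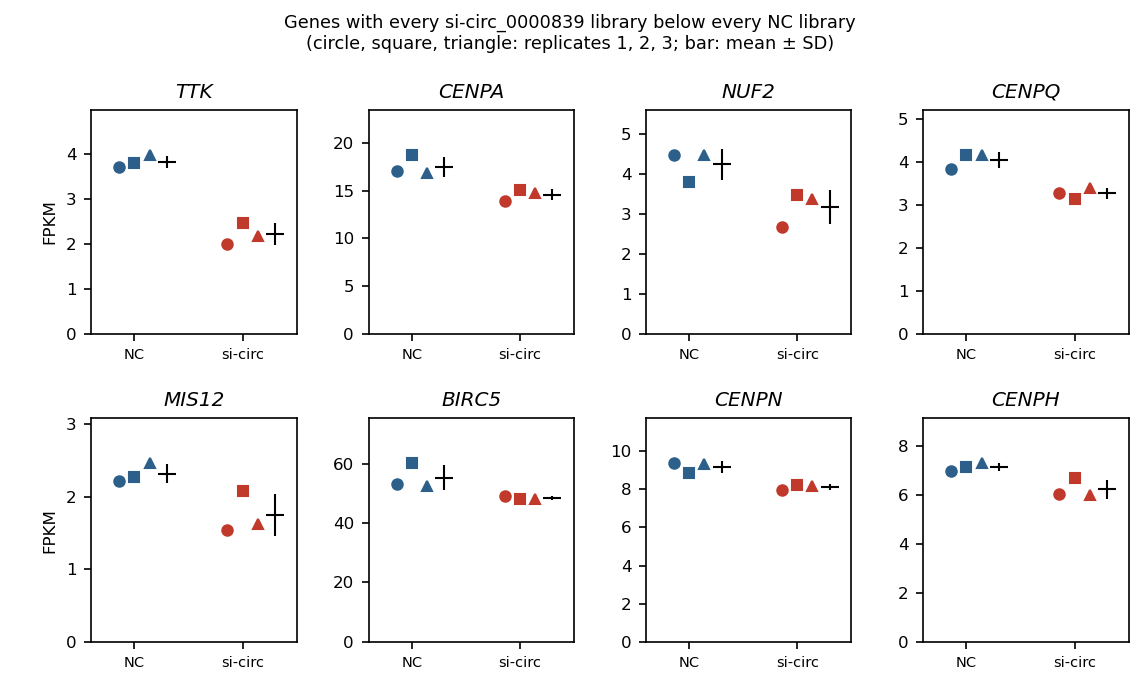
FPKM of the 8 tested genes in which every si-circ_0000839 library (red) lay below every NC library (blue), with replicates 1, 2 and 3 as circle, square and triangle and the mean ± SD (n = 3) as a bar. The means of TTK differ by 1.72-fold and those of the other 7 by 1.13-fold to 1.34-fold.

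Of the 6 RZZ and corona genes 5 were tested, 0 passed and 4 were below 0, with a median log2 change of -0.064. CENPF, a large corona protein bound to dynein regulators, was at 2.48, 3.70 and 2.75 FPKM after si-circ_0000839 and at 4.14, 3.11 and 3.98 in NC. The groups overlapped through si-circ_0000839 replicate 2 and NC replicate 2 (log2 change -0.26, SE 0.12, adjusted p = 0.424). With the trend removed CENPF no longer overlapped and had a log2 change of -0.25 (adjusted p = 0.162). ZWILCH was at 3.43, 4.91 and 4.43 against 4.63, 4.57 and 4.79 FPKM, and ZW10 at 4.83, 6.12 and 6.45 against 6.22, 5.81 and 6.18. In both genes replicate 1 of si-circ_0000839 was the lowest of the 6 libraries and the groups overlapped, and without it and NC replicate 2 the log2 changes were -0.012 and 0.016. KNTC1, the ROD subunit, and SPDL1, the Spindly adaptor for dynein, had log2 changes of -0.013 and 0.027. CENPE, the corona kinesin that moves chromosomes to the spindle equator, was at 0.364, 0.538 and 0.293 against 0.644, 0.390 and 0.662 FPKM and was not tested.

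Of the 6 chromosomal passenger and shugoshin genes 5 were tested, 0 passed and 4 were below 0, with a median log2 change of -0.057. BIRC5, which encodes survivin and brings the complex to the centromere, was at 49.2, 48.3 and 48.1 FPKM after si-circ_0000839 and at 53.3, 60.3 and 52.6 in NC. Its groups did not overlap (1.14-fold lower, log2 change -0.18, SE 0.072, adjusted p = 0.329). NC replicate 2 held the highest value, and without it and si-circ_0000839 replicate 1 the change was -0.13. AURKB, the kinase of the complex, was at 57.7, 54.3 and 56.5 against 59.2, 62.8 and 55.5 FPKM, and CDCA8, or borealin, at 44.9, 40.5 and 41.8 against 44.4, 47.4 and 40.8. Both overlapped by group, with log2 changes of -0.073 and -0.057. INCENP, the scaffold, was at 17.2 ± 1.05 against 17.2 ± 1.11 FPKM (SD, n = 3 per group).

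The shugoshins protect cohesin at the centromere. SGO1 was at 1.62 ± 0.119 FPKM against 1.71 ± 0.0933 in NC and did not pass (log2 change -0.050, adjusted p = 0.855). SGO2 did not reach the mean of 1 FPKM, at 0.643, 0.920 and 0.677 against 1.01, 0.996 and 1.13 FPKM. Its groups were separate on 71 to 130 reads per library. In the limma fit with no filter on low values its log2 change was -0.23 (SE 0.091) and it did not pass (adjusted p = 0.648). In that same fit 33 of the 42 were below 0, where 52.4% of the genes were.

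Of the SKA genes, SKA1 was at 7.08, 8.12 and 7.44 FPKM after si-circ_0000839 and at 7.74, 7.33 and 7.76 in NC. SKA3 was at 8.98, 9.86 and 10.6 against 10.0, 9.20 and 10.5. Neither pair of groups was separate, and both log2 changes were -0.012 (SE 0.074 and 0.081).

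**Figure D4:**
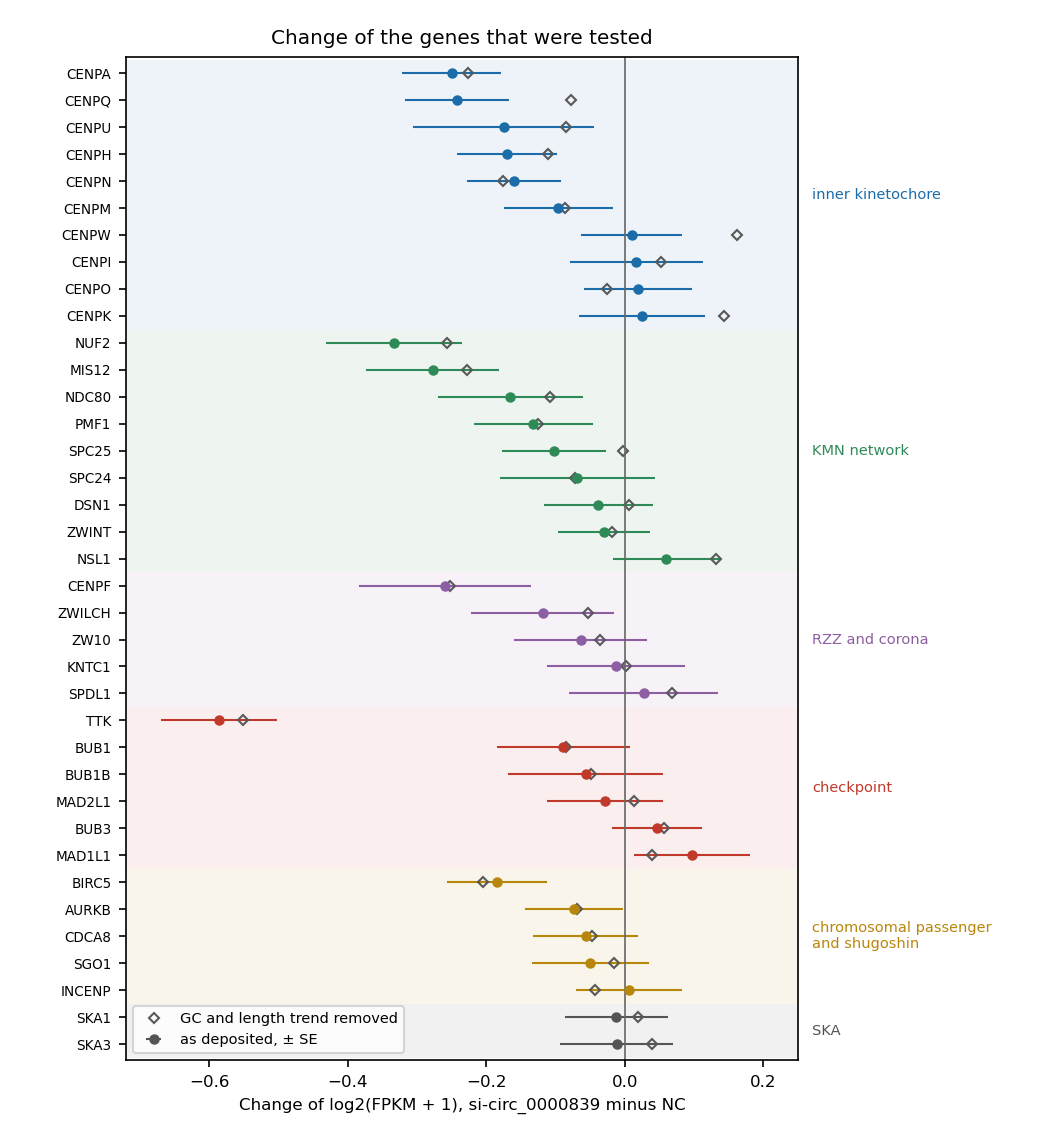
Change of log2(FPKM + 1), si-circ_0000839 minus NC, for the 37 tested genes by subcomplex, as filled points ± SE from limma, with open diamonds for the fit after the GC content and length trend was removed. TTK lies at -0.59 and -0.55; CENPQ moves from -0.24 to -0.077.

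The removal of the GC and length trend moved some genes and left others where they were. Across the 37 genes, the deviation of si-circ_0000839 replicate 1 rose with GC content (Spearman's rho = 0.58, genes sharing a library and not independent), and that of NC replicate 2 likewise (rho = 0.34). The log2 change between the groups had a rho of 0.057 with GC content and 0.30 with gene length, the latter 0.18 over all tested genes. Genes below the GC median of all tested genes had a median change of -0.060 and the 9 genes at or above it -0.069. Over all tested genes these medians were -0.016 and 0.030. With the trend removed, 9 genes were separated downward, where 11.6% of all tested genes were, and 1 upward, where 12.8% were. CENPF and AURKB had joined and CENPQ had left. Of the 37 genes 1, TTK, passed an adjusted p of 0.05 in that fit, where 1.86% of all tested genes passed, 0.984% lower and 0.872% higher. At an unadjusted p under 0.05 there were 7 lower and 1 higher, CENPW, where 8.96% and 9.63% of all tested genes were.

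Genes that work beside these were followed in 6 lists with 98 genes, of which 93 were tested. In limma 0 of the 93 passed the threshold and in voom 0, and at an unadjusted p under 0.05 there were 12 lower and 0 higher. Over all tested genes 0.384% passed in limma and 0.815% in voom, and 6.31% were lower and 6.31% higher at that unadjusted p. Among 19 other kinetochore and CENP-A loading genes, 13 were below 0 and the median log2 change was -0.031. CENPB, which binds a centromeric DNA box, was at 97.4 against 104 FPKM. Of 13 tested checkpoint effectors 10 were below 0, with CDK1 at 16.6 against 19.5 FPKM (adjusted p = 0.349) and CDC20, the target of the checkpoint, at 218 against 252. Of 12 tested cohesin and separase genes 7 were below 0, with PTTG1, or securin, at 42.8 against 49.3 FPKM.

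Mitotic kinesin and spindle genes were below 0 in 16 of 16 cases, with a median log2 change of -0.18. That median was -0.17 with the trend removed and -0.17 without the 2 libraries that stood apart. KIF15 was at 1.03 against 1.57 FPKM (adjusted p = 0.203) and TPX2 at 63.1 against 65.0. The G1/S and replication list had a median of 0.0055, with 8 of 18 below 0, CCNE1 at 4.38 against 5.37 FPKM and PCNA at 193 against 183. Regulators of proliferation had a median of 0.018, with 6 of 15 below 0, and CDKN1A, an inhibitor of cyclin-dependent kinases, at 181 against 163 FPKM. Every si-circ_0000839 library lay below every NC library in 6 kinesin and spindle genes, 5 G1/S genes, 3 checkpoint effectors and 1 regulator of proliferation. The reverse held for 1 checkpoint effector, 1 cohesin gene and 1 other kinetochore gene. Over all tested genes 7.55% were separated downward and 10.6% upward. In limma, 7 kinesin and spindle genes, 3 G1/S genes and at most 1 gene of any other list had an unadjusted p under 0.05. The lists were compared by these counts and medians, and the difference between them was not tested.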

How the data were processed

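RNA sequencing of TPC1 cells gave 6 libraries, 3 per group, grouped by sample title. The authors deposited FPKM values per gene; the submitters' processing notes list HISAT2 2.0.5 and featureCounts 1.5.0-p3. Neither the strand setting nor the method of library scaling is given in the sources used here. All 58735 gene IDs had the same start, end and strand in GENCODE 29, so coordinates are GRCh38. Multiplied by gene length, 100% of values above 0 were whole multiples (within 0.01) of 1 step per library, which gave the reads. GC content is that of the longest GENCODE transcript.

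Genes whose mean reached 1 FPKM were tested with limma 3.58.1 (R 4.3.3, trended prior variance, two-sided) on log2(FPKM + 1), with group as the only term and Benjamini-Hochberg adjustment over 10674 genes. This scale understates changes of low genes; folds are ratios of mean FPKM. The fit was tested on simulated reads that held no GC or length trend, so that test does not cover the libraries that stood apart. Every library is given for called genes and, per subcomplex, for the 3 with the smallest p and the most abundant. CENPE and CENPF were placed with RZZ, and the shugoshins with the passenger complex. Genes, lists and tests were chosen with earlier results of these data known. A few genes of the marker and pathway lists are not reported here by name. The GC and length trend used splines with 5 degrees of freedom each.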

Additional observations from a re-analysis of the deposited data

How the results depend on the processing

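Across 18 alternative settings TTK was lower in each fit that tested it, and no other gene of the list passed in any; it was not tested with a mean of at least 5 FPKM. Genes of the list called were 0 with no filter (TTK adjusted p = 0.181), 0 with at least 5 FPKM and 0 without si-circ_0000839 replicate 1 and NC replicate 2 together; without 1 library they were 0 to 1. All called genes numbered 4 with no filter, 68 with at least 5 FPKM, 63 after quantile normalization, 198 with the GC content and length trend removed, 104 with that and the replicate block, 86 in voom and 26 without the 2 libraries; without 1 library there were 20 to 38 (21 and 22 without si-circ_0000839 replicates 1 and 3, 25 and 20 without NC replicates 1 and 3). The split of calls was 14 higher and 27 lower in the reported fit, 29 and 34 after quantile normalization, 32 and 24 rescaled to TPM, 93 and 105 with the trend removed and 49 and 37 in voom. The median change of the list was -0.012 without the 2 libraries, moving by more than the spread of library medians (SD 0.044), and -0.099 to -0.024 without 1 library. The other alternatives gave medians within that spread. The cause of these changes was not tested. Of 655 values of single genes 56 had the other sign, none of them called, and 18 genes were below 0 in every setting.

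Same-numbered libraries had correlations of -0.15, -0.29 and 0.15 between their deviations from the group means. The highest correlation, 0.35, was between si-circ_0000839 replicate 1 and NC replicate 2, the pair that stood apart in GC content. With 3 libraries per group and no GC correction, these correlations cannot decide whether the replicate numbers pair the samples. With the replicate block 35 genes were called, 25 of them among the 41, and TTK had an adjusted p of 0.0387; with the block and the trend removed it was 0.0168. The planned count models, edgeR and DESeq2, were not run here; voom was the model run on recovered reads. Genes on few reads, such as CENPC and CENPE with 51 in 1 library, limit what can be detected.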
